A study of Mus musculus with 24 samples.

Results

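The genes described here are 38 immediate early and activity-induced genes, chosen by symbol from a list, out of 45706 genes in the deposited table. Each of the 38 matched 1 gene identifier. They were measured by RNA sequencing of whole hypothalamus from male mice with diet-induced obesity (DIO), with 8 libraries in each of 3 groups. PSD-95i mice received 25 mg/kg of UCCB01-147, an inhibitor of the postsynaptic scaffold protein PSD-95. PICK1i mice received 56 mg/kg of mPD5, an inhibitor of PICK1, a scaffold that binds AMPA-type glutamate receptors and takes part in their trafficking. Control mice received isotonic saline. All groups were injected daily for 5 days and the tissue was taken 2 h after the last injection, so a response to that injection and a standing effect of the earlier ones cannot be told apart. The doses of the 2 inhibitors differ, and neither strain nor age is given in the sources used here. The protocol gives 6 animals for saline where the labels give 8 libraries, and the labels do not tie libraries to animals, so p-values measure the spread between libraries. In whole tissue, fewer responding cells and less mRNA per cell cannot be told apart.

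Immediate early genes are switched on within minutes of a stimulus, without new protein synthesis, and in neurons they are a standard readout of recent activity. Calcium and kinase signals from glutamate receptors reach factors already present on their promoters, among them CREB and the serum response factor, and the mRNA decays quickly. In the hypothalamus, Fos is widely used to map neurons that respond to fasting, feeding, hormones, stress or a drug. The products include transcription factors that start a second wave of genes, phosphatases and other dampers that end the signal, and proteins that act at the synapse or are secreted.

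Counts per library ran from 4762697 to 9228843, and levels are given as CPM, the counts divided by the scaled library size and set on a common total. Of the 24 libraries 3 stood apart, and results are given with and without them. Saline replicates 2 and 3 carried pituitary mRNA: growth hormone (Gh) was at 52000 and 32100 CPM there, against at most 40.9 CPM in the 21 libraries left without the 3, and each of the 10 pituitary markers was above its own maximum in those 21 in both. PICK1i replicate 6 carried markers of cortex and hippocampus, with a summed level over 10 markers of 1000 CPM. The sum was 158 to 218 CPM in PSD-95i, 154 to 255 CPM in the other PICK1i libraries and 140 to 387 CPM in saline. The highest saline sum was that of replicate 6, which is kept in all fits without the 3. The 15 hypothalamic markers were detected in each group, with sums of 1480 to 1900 CPM in PSD-95i, 1570 to 2400 CPM in PICK1i and 1480 to 18000 CPM in saline. The pituitary-bearing libraries had 14900 and 18000 CPM, of which 13800 and 17000 CPM were Pomc (at most 228 CPM in the 21). In both, Hcrt, Pmch, Sst and Nkx2-1 were below their lowest level in the 21, and Six3 was above its highest. In PICK1i replicate 6, Pomc was at 8.2 CPM, against at least 66.8 CPM in the 21. Agrp, Avp, Oxt, Sst, Six3, Fezf1 and Nr5a1 were also below their lowest level there, and Hcrt and Pmch above their highest. PICK1i replicates 1, 2, 5 and 6 had 13.47% to 16.61% of their counts on mitochondrial genes, against 8.512% to 10.41% in PSD-95i and 7.882% to 10.68% in saline. In the same 4 libraries longer transcripts were relatively low: the slope of log2 deviation on log2 transcript length (length tilt) was -0.172 to -0.0955, and -0.0239 to 0.0695 in the other PICK1i libraries, against -0.00924 to 0.0886 in PSD-95i and -0.0211 to 0.0487 in saline. The summed oligodendrocyte markers were 5150 to 6290 CPM in PSD-95i, 5010 to 9840 CPM in PICK1i and 2800 to 7060 CPM in saline. Further fits left libraries out or used length tilt as a covariate, 2 surrogate variables or sample weights. With length tilt, 0 members and 0.0128% of all genes were called in PICK1i against saline. The part of these differences in the results was not tested beyond such fits. The targets' own mRNAs passed the test in no comparison: in PICK1i against saline the log2 fold change was 0.15 ± 0.07 both for Dlg4, which encodes PSD-95, and for Pick1 (standard error, edgeR adjusted p = 0.129 and 0.155).

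The sequence around the start sites shows a feature that many of these genes share. RefSeq promoters of build GRCm38.p6, from 250 bases before to 50 bases after the start, were matched by symbol for 30 of the 38 genes, as 40 promoters; Arc, Egr1, Egr3, Ier2, Nptx2, Sik1, Trib1 and Vgf were not matched. The letters TGACG, found in sites that CREB and ATF proteins bind, stood on either strand in 26 of the 40 (65.0%), covering 20 of the 30 genes, and in 20.8% of all 32851 promoters. The palindrome TGACGTCA, whose matches also count as TGACG on both strands, was in 4 of the 40 (10%), in Btg2, Dusp1, Maff and Plk2, and in 1.79% of all promoters. The CArG box of the serum response factor, searched on both strands, was in 5 of the 40 (12.5%) and in 1.63% of all promoters. These 5 covered only 2 of the 30 genes, Dusp5 and Egr2, so several are promoters of the same gene. Sites outside the window were not searched. A match describes letters and does not show binding, and no link between the sites and the levels was tested. The promoters of 7 genes named in results below are shown. They are Fos, then Nr4a1, Dusp1 and Btg2, the members whose levels followed Fos most closely, then Egr4, Plk3 and Ier3, the matched members that passed the test in PICK1i. That of Ier3 holds no TGACG in this window. They run 5′ to 3′ on the gene's own strand, with TGACG and its reverse complement CGTCA in capitals.
Fos (chr12:85473640-85473939, plus strand): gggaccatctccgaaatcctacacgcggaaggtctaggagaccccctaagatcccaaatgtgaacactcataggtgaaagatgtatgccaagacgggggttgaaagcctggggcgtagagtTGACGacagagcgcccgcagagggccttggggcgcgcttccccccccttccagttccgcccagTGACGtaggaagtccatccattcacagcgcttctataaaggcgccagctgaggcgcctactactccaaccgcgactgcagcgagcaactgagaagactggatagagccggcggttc
Nr4a1 (chr15:101266596-101266895, plus strand): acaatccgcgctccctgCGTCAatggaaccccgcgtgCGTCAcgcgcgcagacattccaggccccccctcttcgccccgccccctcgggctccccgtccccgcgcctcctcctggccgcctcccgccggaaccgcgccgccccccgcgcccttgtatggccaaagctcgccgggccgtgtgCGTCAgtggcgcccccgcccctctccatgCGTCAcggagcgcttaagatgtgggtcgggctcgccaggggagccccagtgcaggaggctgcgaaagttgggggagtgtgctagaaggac
Dusp1 (chr17:26508423-26508722, minus strand): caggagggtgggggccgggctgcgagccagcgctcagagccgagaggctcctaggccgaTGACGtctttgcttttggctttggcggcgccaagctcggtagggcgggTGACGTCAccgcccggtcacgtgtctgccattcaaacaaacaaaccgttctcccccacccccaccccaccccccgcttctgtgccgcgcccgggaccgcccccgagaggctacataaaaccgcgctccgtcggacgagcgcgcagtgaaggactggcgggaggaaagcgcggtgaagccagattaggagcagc
Btg2 (chr1:134079106-134079405, minus strand): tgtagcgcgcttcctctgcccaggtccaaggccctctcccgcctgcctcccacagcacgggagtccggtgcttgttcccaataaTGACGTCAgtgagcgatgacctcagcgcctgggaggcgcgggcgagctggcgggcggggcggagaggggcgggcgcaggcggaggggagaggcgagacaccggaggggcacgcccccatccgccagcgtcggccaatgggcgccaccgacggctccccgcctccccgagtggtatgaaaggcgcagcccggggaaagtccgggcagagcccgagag
Egr4 (chr6:85513540-85513839, minus strand): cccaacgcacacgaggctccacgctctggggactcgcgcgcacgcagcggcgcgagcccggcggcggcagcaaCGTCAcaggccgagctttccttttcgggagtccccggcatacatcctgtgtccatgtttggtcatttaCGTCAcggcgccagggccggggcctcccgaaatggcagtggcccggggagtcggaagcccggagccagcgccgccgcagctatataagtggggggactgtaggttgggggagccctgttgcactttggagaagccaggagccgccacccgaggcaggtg
Plk3 (chr4:117133914-117134213, minus strand): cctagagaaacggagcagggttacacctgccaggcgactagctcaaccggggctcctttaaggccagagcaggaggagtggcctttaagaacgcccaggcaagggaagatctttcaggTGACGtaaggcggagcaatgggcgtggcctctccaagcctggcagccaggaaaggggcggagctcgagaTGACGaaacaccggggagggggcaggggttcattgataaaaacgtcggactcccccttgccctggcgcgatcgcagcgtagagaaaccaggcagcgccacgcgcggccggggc
Ier3 (chr17:35821463-35821762, plus strand): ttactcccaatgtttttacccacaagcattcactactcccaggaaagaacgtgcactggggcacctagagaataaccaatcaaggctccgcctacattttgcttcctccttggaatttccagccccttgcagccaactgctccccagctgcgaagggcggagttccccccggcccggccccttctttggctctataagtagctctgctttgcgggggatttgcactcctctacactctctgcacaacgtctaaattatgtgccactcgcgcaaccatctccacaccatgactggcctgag
The Fos promoter held 2 of these sites and that of Nr4a1 held 4.

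The members differed widely in level. Per kilobase of transcript, in the 6 saline libraries without pituitary mRNA, the median level ran from 0.213 CPM for Ptgs2 (prostaglandin synthase 2) and 0.263 CPM for Egr2, a zinc finger factor, to 80.3 CPM for Jund, an AP-1 subunit, and 121 CPM for Vgf, a precursor of secreted neuropeptides. On the same scale Fos stood at 5.13 CPM, Npas4 at 4.95 CPM and Arc at 4.85 CPM. Ptgs2 and Inhba (a subunit of activin) had too few counts to be tested over 24 libraries, which left 36 members. Within groups the members scattered more widely than the median gene. The within-group standard deviation of log2 CPM had a median of 0.366 over the members and 0.207 over all genes tested, and without the 3 libraries the medians were 0.262 and 0.178. Egr3 and Egr2 varied most, at 0.722 and 0.712, and Rgs2, a brake on G protein signalling, least, at 0.114.

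**Figure D1:**
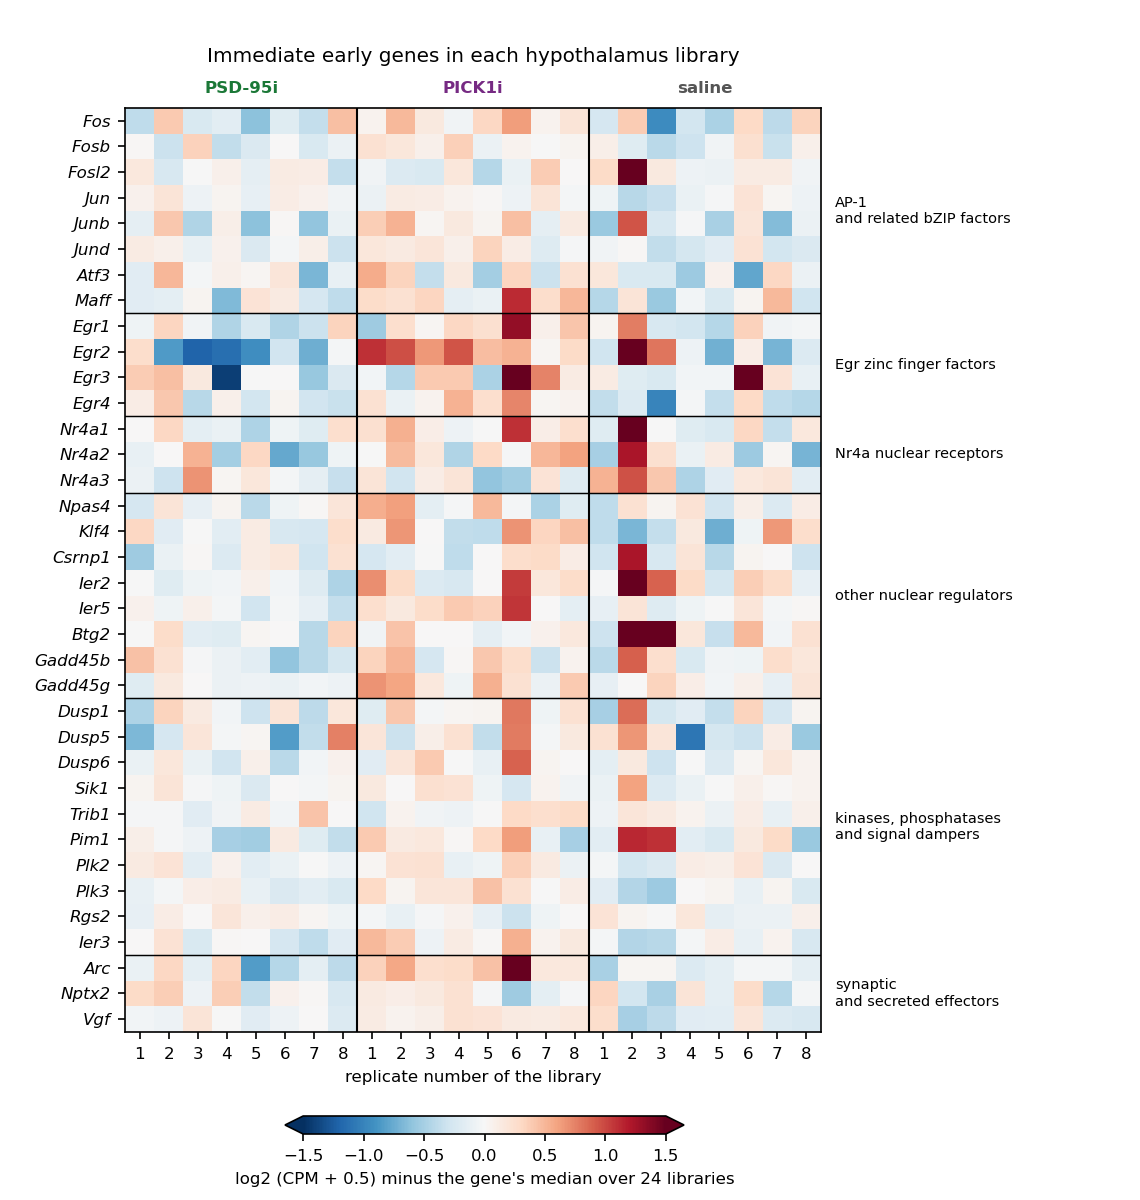
Level of the 36 tested members (rows, by role) in each of the 24 libraries (columns, by group), as the log2 difference from the gene's own centre, in colour. Saline replicate 2 and PICK1i replicate 6 stand out, with 13 and 12 members at their highest there.

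With PICK1i, 5 of the 36 members tested were higher than in saline and 0 were lower: Arc, Plk3, Egr4, Vgf and Ier3. Their log2 fold changes lay between 0.27 and 0.77. The member of largest absolute fold, Btg2, an antiproliferative cofactor of mRNA deadenylation, had a lowest, median and highest level of 11, 12.1 and 16.4 CPM in PICK1i, against 9.44, 14 and 77.8 CPM in saline. Its log2 fold change was -0.95 ± 0.33, which did not pass (edgeR adjusted p = 0.0657), and 0.02 ± 0.14 without the 3 libraries (0.946). Of all 15667 genes tested 4.88% were called higher and 4.27% lower, 9.15% in all, by the quasi-likelihood test of edgeR with p adjusted over all genes tested and a threshold of 0.05. At an unadjusted p under 0.05 there were 11 members, 9 higher and 2 lower (30.6%, against 28.8% of all genes). Without saline replicates 2 and 3 and PICK1i replicate 6 no member passed, with 0.019% of genes called, while 9 of 37 members had an unadjusted p under 0.05, all on the higher side (24.3%, against 20.9% of all genes). The median log2 fold change of the members was 0.17, with 26 of 36 above 0, against -0.009 over all genes, with 48.2% above 0. Without the 3 libraries it was again 0.17, with 33 of 37 above 0 (48.4% of all genes), the exceptions being Egr3, Fosl2, Rgs2 and Nr4a3.

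Arc encodes a capsid-like protein that promotes internalisation of AMPA receptors, and lies at chr15:74669083-74672570 on the minus strand of GRCm38 (ENSMUSG00000022602). Its lowest, median and highest levels were 18.4, 20.5 and 66.5 CPM in PICK1i, against 11.6, 15.5 and 16.9 CPM in saline. Every PICK1i library was above every saline library, and the highest, far from the rest, was replicate 6, the library with cortical markers. Groups that do not overlap in this direction were found for 0.0957% of genes, and Arc was the one member among them. Arc gave a log2 fold change of 0.77 ± 0.22 (standard error, edgeR adjusted p = 0.029). Without the 3 libraries it was 0.49 ± 0.14 (adjusted p = 0.105), and the groups still did not overlap, as for 0.247% of genes. In PICK1i replicates 3, 4, 7 and 8, those with the lower mitochondrial share, Arc was 18.4 to 20 CPM, above the highest saline library. In replicates 1, 2, 5 and 6, with the higher share, it was 21.1 to 66.5 CPM, above each of the other 4.

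Plk3, a polo-like kinase induced by stress and mitogens, lies at chr4:117128655-117133963 on the minus strand. It had 19.7, 22.6 and 27.2 CPM as its lowest, median and highest in PICK1i, against 13.4, 18 and 20.5 CPM in saline. All 8 PICK1i libraries were above the saline median with a narrow overlap, and the lowest saline values were those of the pituitary-bearing libraries. For Plk3 the log2 fold change was 0.35 ± 0.09 (edgeR adjusted p = 0.0221), and 0.24 ± 0.08 without the 3 libraries (adjusted p = 0.13). Egr4, a zinc finger transcription factor at chr6:85511121-85513589 on the minus strand, had 4.76, 5.74 and 8.86 CPM in PICK1i, against 2.34, 3.9 and 6.43 CPM in saline. All PICK1i libraries exceeded the saline median, and saline replicates 4 and 6 reached into the PICK1i range. For Egr4 the log2 fold change was 0.55 ± 0.17 (edgeR adjusted p = 0.0409), and 0.39 ± 0.16 without the 3 libraries (adjusted p = 0.181).

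Vgf, at chr5:137026392-137033351 on the plus strand, had 345, 364 and 389 CPM in PICK1i, against 235, 292 and 400 CPM in saline. The PICK1i libraries lay in a narrow band, and saline ran to both sides of it, with the pituitary-bearing replicates lowest. For Vgf the log2 fold change was 0.27 ± 0.08 (edgeR adjusted p = 0.0416), and 0.17 ± 0.08 without the 3 libraries (adjusted p = 0.191). Ier3, a stress-induced regulator of survival signalling at chr17:35821684-35822923 on the plus strand, had 9.8, 11.5 and 15.3 CPM in PICK1i, against 7.53, 9.85 and 11.3 CPM in saline. The ranges overlapped, with 7 of the 8 PICK1i libraries above the saline median. For Ier3 the log2 fold change was 0.35 ± 0.11 (edgeR adjusted p = 0.0479), and 0.20 ± 0.11 without the 3 libraries (adjusted p = 0.283).

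**Figure D2:**
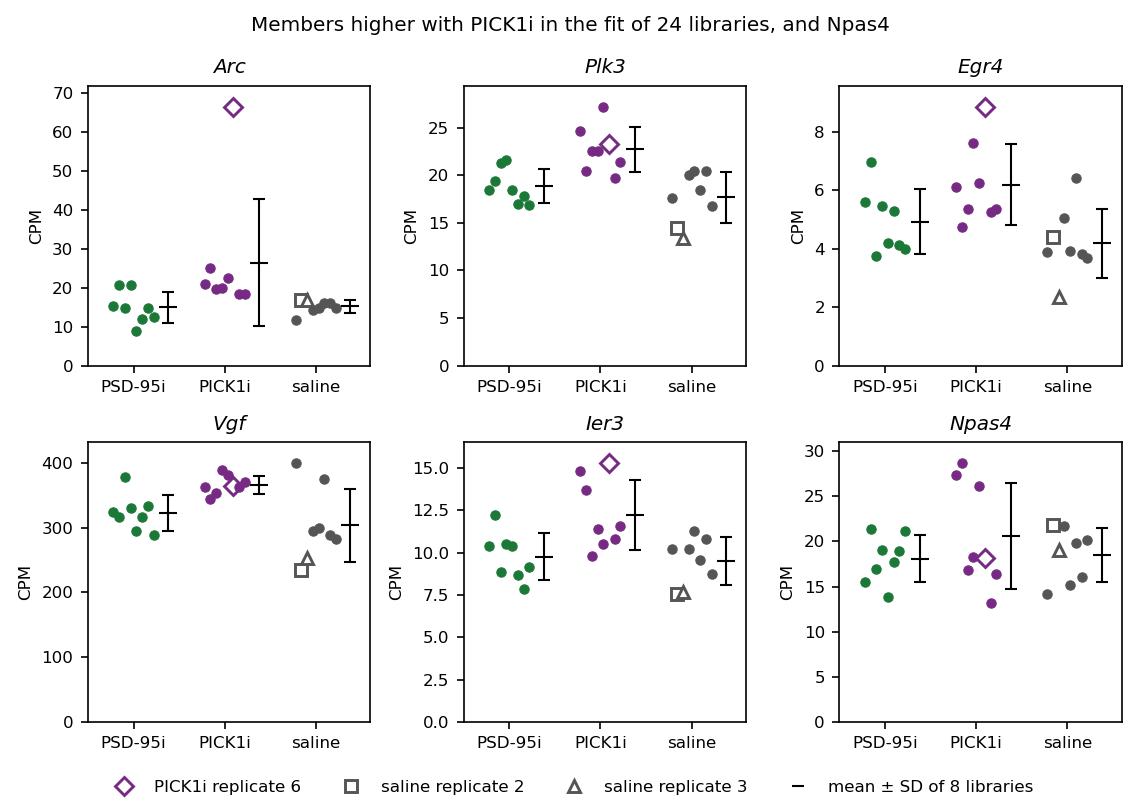
CPM of Arc, Plk3, Egr4, Vgf, Ier3 and Npas4 in each library (points) by group, with the mean and SD of 8 libraries and open symbols for PICK1i replicate 6 and saline replicates 2 and 3. In Arc the lowest PICK1i library (18.4 CPM) is above the highest saline library (16.9 CPM), and in Npas4 3 PICK1i libraries lie between 26.2 and 28.7 CPM, above the saline maximum of 21.8 CPM.

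Single libraries moved these calls. With 1 library left out at a time, Arc passed in 21 of 24 fits, missing the threshold without saline replicate 2 (edgeR adjusted p = 0.054), PICK1i replicate 5 (0.0543) or PICK1i replicate 6 (0.0518, log2 fold change 0.45). Plk3 passed in 22, missing it without saline replicate 2 (0.054) or PICK1i replicate 5 (0.0527). Egr4 passed in 14, Vgf in 7 and Ier3 in 6. The number of members called was 0 without saline replicate 2 or PICK1i replicate 5 (2.56% and 1.9% of all genes called), 1 without PICK1i replicate 6 (3.42% of genes), and 2 without PICK1i replicate 1, saline replicate 3 or PSD-95i replicate 6 (4.45%, 4.02% and 7.59%). It was 3 without saline replicate 4 or PSD-95i replicate 1, 2, 4, 5 or 7 (5.58% to 8.16%), and 8 without PICK1i replicate 7, where 17.5% of genes were called. These were all on the higher side. Btg2 was called lower without saline replicate 1, 5, 7 or 8, beside 5, 3, 3 and 2 members called higher (9.44% to 10.5% of genes called). Without PICK1i replicates 1, 2, 5 and 6, the libraries with the high mitochondrial share, no member was called, and 0.0% of all genes were. The log2 fold change in that fit was 0.33 for Arc, 0.28 for Plk3, 0.49 for Egr4, 0.28 for Vgf and 0.19 for Ier3 (edgeR adjusted p of 0.367 to 0.511).

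Apart from Arc, the classical neuronal markers Fos, Fosb, Egr1, Npas4 and Nr4a1 did not pass the test with PICK1i. Fos had 11.3, 13.3 and 18.4 CPM as its lowest, median and highest in PICK1i, against 5.86, 9.69 and 15.4 CPM in saline. All 8 PICK1i libraries were above the saline median and the ranges overlapped. The log2 fold change was 0.35 ± 0.18 (edgeR adjusted p = 0.193), and 0.28 ± 0.17 without the 3 libraries (adjusted p = 0.338). Fosb, another AP-1 subunit, gave 0.22 ± 0.12 (adjusted p = 0.223), and 0.16 ± 0.13 without them. Egr1 gave 0.28 ± 0.19 (adjusted p = 0.345), 0.20 ± 0.15 without the 3 libraries, and 0.08 without PICK1i replicate 6 alone, which had its highest level at 76.0 CPM. Npas4, a transcription factor induced by calcium entry in neurons, had 27.4, 28.7 and 26.2 CPM in PICK1i replicates 1, 2 and 5, against 14.2 to 21.8 CPM in saline. These are libraries with a high mitochondrial share, and the other 5 PICK1i libraries, at 13.2 to 18.3 CPM, were below the saline median of 19.4 CPM. Replicate 6, which has a high share too, was among these 5 at 18.2 CPM. The 6 saline libraries without pituitary mRNA had 14.2 to 21.7 CPM, with a mean of 17.9 CPM. The log2 fold change of Npas4 was 0.15 ± 0.14 (adjusted p = 0.513), 0.21 ± 0.16 without the 3 libraries (adjusted p = 0.458), and -0.20 without PICK1i replicates 1, 2, 5 and 6 (adjusted p = 0.525). Nr4a1, an orphan nuclear receptor, had 19.3 to 44.3 CPM in PICK1i, all above the saline median of 19.2 CPM, while saline replicate 2 had 97.5 CPM. Its log2 fold change was -0.22 ± 0.29 (adjusted p = 0.653), and 0.24 ± 0.12 without the 3 libraries (adjusted p = 0.27).

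In 10 of the 36 members (27.8%) all 8 PICK1i libraries lay above the saline median: Fos, Fosb, Junb, Egr2, Egr4, Nr4a1, Dusp1, Plk3, Arc and Vgf. Over all genes 5.17% had this pattern. Without the 3 libraries it was found in 8 of 37 members (21.6%) and 5.11% of genes. This count was chosen after the values were seen and is a description. By role, 7 of 8 AP-1 and related factors, 4 of 4 Egr factors and 3 of 3 tested synaptic and secreted effectors had a log2 fold change above 0. Their medians were 0.23, 0.36 and 0.27, with 0, 1 and 2 called. Above 0 were also 7 of 10 kinases, phosphatases and dampers (median 0.14, 2 called), 4 of 8 other nuclear regulators (0.06, 0 called) and 1 of 3 Nr4a receptors (-0.22, 0 called). Of all genes 48.2% were above 0 and 9.15% were called. Without the 3 libraries these medians were 0.19, 0.20, 0.23, 0.13, 0.14 and 0.24 in the same order of roles. Above 0 in that fit were 7 of 8, 2 of 3, 5 of 5, 9 of 10, 8 of 8 and 2 of 3 tested, against 48.4% of all genes. The members of larger change in that fit included Nr4a2 at 0.53 ± 0.20 (edgeR adjusted p = 0.149), Junb, an AP-1 subunit, at 0.41 ± 0.16 (0.148) and Gadd45g, a stress-induced growth arrest gene, at 0.31 ± 0.11 (0.13). Ptgs2 and Inhba, tested there on few counts, gave 0.40 ± 0.48 and 0.23 ± 0.35.

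**Figure D3:**
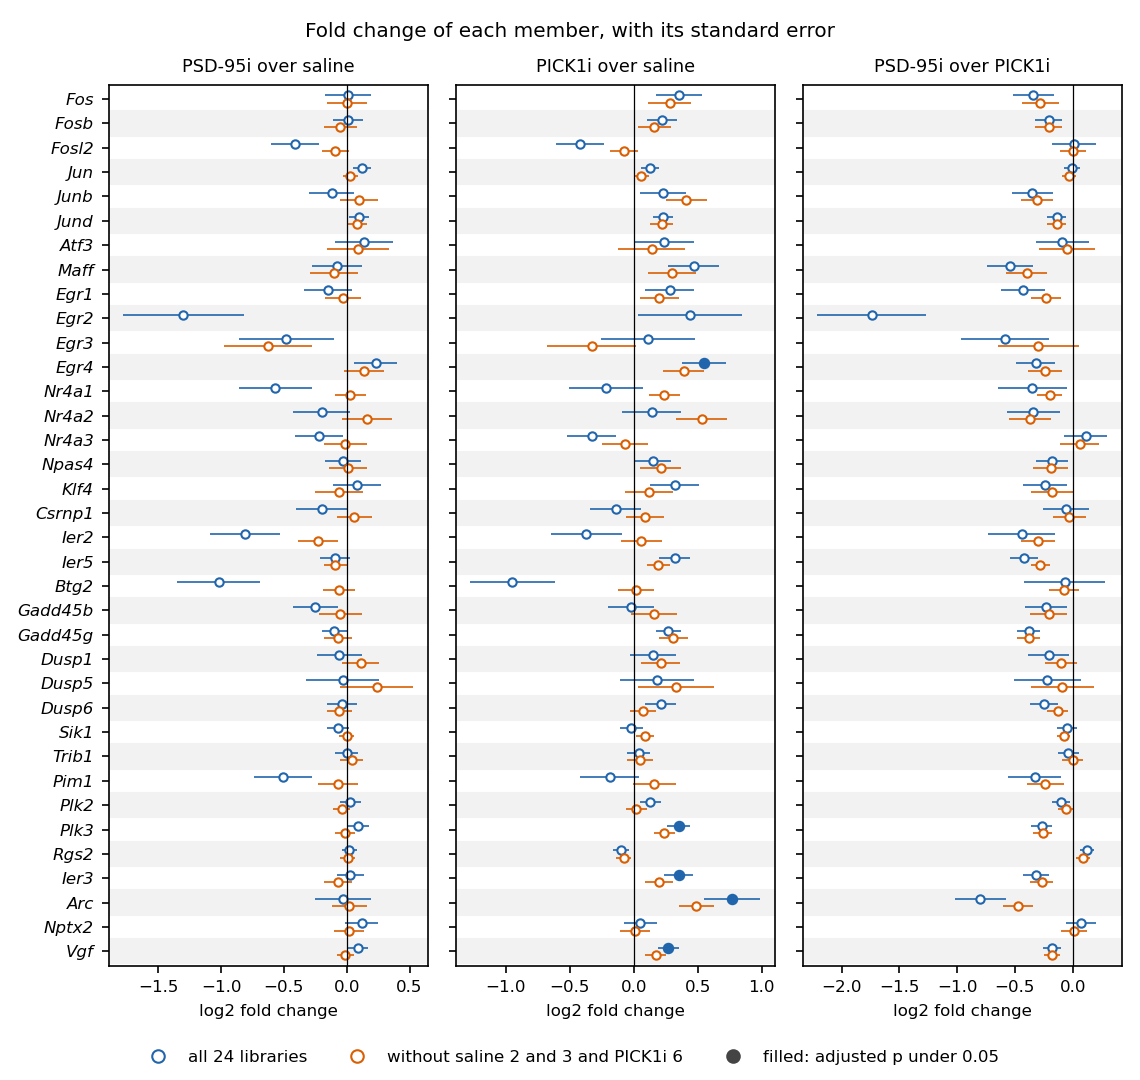
Log2 fold change (points) and standard error (bars) of each tested member in PSD-95i over saline, PICK1i over saline and PSD-95i over PICK1i, with all 24 libraries and without saline replicates 2 and 3 and PICK1i replicate 6. In PICK1i over saline 5 members are called with all libraries and 0 without the 3, and Btg2 in PSD-95i over saline is at -1.02 with all libraries and -0.06 without the 3.

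With PSD-95i, 0 of the 36 members passed the edgeR test against saline, as did 0.0% of all 15667 genes. DESeq2 and limma-voom also called 0 members, and 0.0% of all genes. At an unadjusted p under 0.05 there were 5 members, all on the lower side (13.9%, against 11% of all genes), and 0 of 37 without the 3 libraries (2.99% of genes). The median log2 fold change of the members was -0.05 with 14 of 36 above 0, against -0.003 over all genes, with 49.1% above 0. Without the 3 libraries it was -0.01 with 18 of 37 above 0 (48.2% of all genes). Fos had 7.47, 10.1 and 16.3 CPM as its lowest, median and highest in PSD-95i, against 5.86, 9.69 and 15.4 CPM in saline, so the ranges largely coincided. The log2 fold change was 0.01 ± 0.18 for Fos, 0.01 ± 0.12 for Fosb, -0.15 ± 0.19 for Egr1, -0.03 ± 0.14 for Npas4 and -0.03 ± 0.22 for Arc (edgeR adjusted p of 0.784 to 0.997). Arc ranged from 8.99 to 20.7 CPM in PSD-95i, wider than the 11.6 to 16.9 CPM of saline. A p that misses the threshold does not show that levels were equal.

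The 4 members with the smallest p in PSD-95i against saline were Btg2, Ier2, Egr2 and Pim1. Btg2 had 8.96 to 15.4 CPM in PSD-95i, against 77.8 and 43.0 CPM in saline replicates 2 and 3 and 9.44 to 17.2 CPM in the other saline libraries. Its log2 fold change was -1.02 ± 0.33 (edgeR adjusted p = 0.356), and -0.06 ± 0.13 without the 3 libraries. Ier2 had 2.71 to 4.18 CPM in PSD-95i, against 17.3 and 7.7 CPM in those 2 saline libraries and 3.19 to 5.21 CPM in the others. All 8 PSD-95i libraries were below the saline median, a pattern seen in 4.58% of genes (2.77% without the 3 libraries), and the log2 fold change was -0.81 ± 0.28 (adjusted p = 0.356), and -0.23 ± 0.16 without the 3 libraries. Pim1, a serine/threonine kinase, gave -0.51 ± 0.23 (adjusted p = 0.431), and -0.07 ± 0.16 without them. Egr2 gave -1.30 ± 0.48 (adjusted p = 0.379), on as few as 1 count in a library, and was too low to test without them. Nr4a1 gave -0.57 ± 0.29 (adjusted p = 0.473), and 0.03 ± 0.12 without them.

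**Figure D4:**
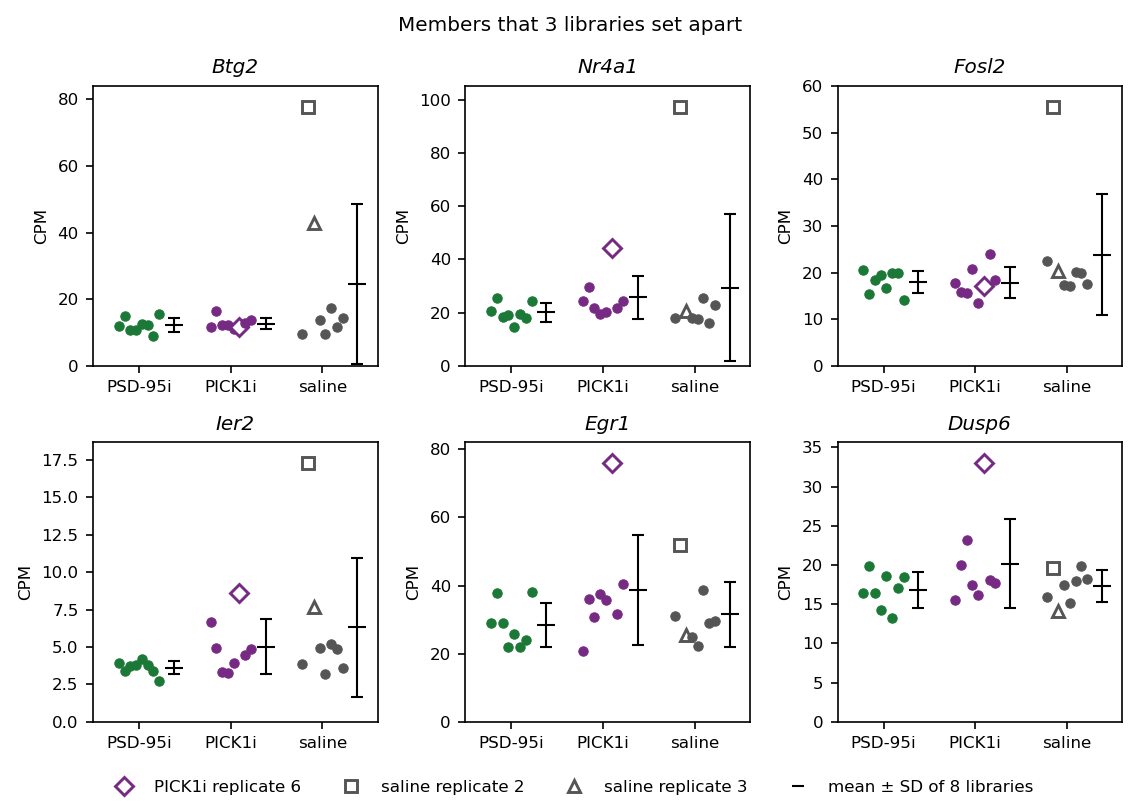
CPM of Btg2, Nr4a1, Fosl2, Ier2, Egr1 and Dusp6 in each library (points) by group, with the mean and SD of 8 libraries and open symbols for the 3 libraries that stood apart. Saline replicate 2 is highest in Btg2 (77.8 CPM), Nr4a1 (97.5 CPM), Fosl2 (55.6 CPM) and Ier2 (17.3 CPM), and PICK1i replicate 6 in Egr1 (76.0 CPM) and Dusp6 (33.0 CPM).

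Between PSD-95i and PICK1i, 0 of 36 members passed the edgeR test, as did 0.0% of all genes, while 32 members had a log2 fold change below 0. The median of the members was -0.24, against -0.01 over all genes, and without the 3 libraries it was -0.19 with 34 of 37 below 0. At an unadjusted p under 0.05 there were 9 members, all lower in PSD-95i (25.0%, against 24.2% of all genes), and 8 of 37 without the 3 libraries (21.6%, against 25.5%). DESeq2, which replaces far counts in groups of this size, called 4 members lower (Gadd45g, Arc, Plk3 and Ier5) among 8.04% of all genes, and limma-voom called 2 (Arc and Egr2) among 2.74%. Without saline replicates 2 and 3 edgeR called 5, namely Gadd45g, Arc, Plk3, Egr2 and Ier5 (13.2% of the 38 members tested, against 7.64% of genes), and without PICK1i replicate 6 as well it called 0 (0.00633% of genes). In 8 of 36 members (22.2%) all PSD-95i libraries lay below the PICK1i median, against 13.3% of genes, and without the 3 libraries in 6 of 37 (16.2%), against 11.7%. With 1 library left out, 3 members passed without saline replicate 2 or 3 or PICK1i replicate 3 or 8 (2.4% to 4.79% of genes called), 4 without PICK1i replicate 4 (9% of genes) and 6 without PICK1i replicate 7 (16.2% of members, against 14.7% of genes).

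Gadd45g had 19.5, 21 and 24.5 CPM as its lowest, median and highest in PSD-95i, against 20.8, 27.5 and 35.6 CPM in PICK1i. All PSD-95i libraries were below the PICK1i median, and the ranges overlapped. The log2 fold change was -0.38 ± 0.10 (edgeR adjusted p = 0.0513), and -0.38 ± 0.10 without the 3 libraries (adjusted p = 0.0628). Egr2 had 0.121, 0.33 and 1.22 CPM in PSD-95i, against 0.963, 1.65 and 2.56 CPM in PICK1i. All PSD-95i libraries were below the PICK1i median and 1 of them was above the lowest PICK1i library, and the log2 fold change was -1.74 ± 0.47 (adjusted p = 0.0513). Arc had 8.99, 14.8 and 20.7 CPM in PSD-95i, against 18.4, 20.5 and 66.5 CPM in PICK1i. Its ranges overlapped, with a log2 fold change of -0.80 ± 0.22 (adjusted p = 0.0515), and -0.47 ± 0.13 without the 3 libraries (adjusted p = 0.0628). Ier5, a cofactor of heat shock factor 1, had 15.7, 19.5 and 21.3 CPM in PSD-95i, against 18.2, 24.4 and 43.0 CPM in PICK1i. Its log2 fold change was -0.42 ± 0.12 (adjusted p = 0.0553), and -0.28 ± 0.08 without the 3 libraries (adjusted p = 0.0635). Without PICK1i replicates 1, 2, 5 and 6 the log2 fold change was -0.16 for Gadd45g, -0.36 for Arc, -0.24 for Ier5 and -1.56 for Egr2, with an adjusted p of 1 for each. In those 4 libraries Gadd45g was 25.9 to 35.6 CPM, and in the other 4 PICK1i libraries 20.8 to 29.1 CPM. The classical members other than Arc gave -0.34 ± 0.18 for Fos, -0.21 ± 0.12 for Fosb, -0.43 ± 0.19 for Egr1, -0.18 ± 0.14 for Npas4 and -0.35 ± 0.30 for Nr4a1 (edgeR adjusted p of 0.172 to 0.502).

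Within groups, some members varied together with Fos from library to library. Log2 CPM was centred on each group's mean over the 21 libraries left without the 3, and each of 15666 genes was correlated with Fos, with 100000 permutations within groups. Nr4a1 ranked first (Pearson's r = 0.88, permutation p = 2e-05, adjusted over all genes 0.094, Spearman's rho = 0.78 with permutation p = 0.00016). Dusp1, a phosphatase that inactivates MAP kinases, had the rank 4 (r = 0.78, permutation p = 0.00016, adjusted 0.279, rho = 0.81 with permutation p = 9e-05). Btg2 had the rank 7 (r = 0.71, permutation p = 0.00176, adjusted 0.42, rho = 0.54 with permutation p = 0.025) and Junb the rank 12 (r = 0.69, permutation p = 0.00319, adjusted 0.433, rho = 0.64 with permutation p = 0.00573). No gene reached an adjusted p of 0.05. With Egr1 (r = 0.60) and Npas4 (r = 0.57), 6 of 35 members were among the 100 genes, out of 15666, most like Fos. The median r with Fos was 0.19 over the members and 0 over all genes. The genes Glt8d1 (r = 0.81) and Kmt2e (r = 0.79), no members, held the ranks between Nr4a1 and Dusp1. Without PSD-95i replicates 2 and 8, the libraries farthest from the median in Fos, r was 0.84 for Nr4a1, 0.76 for Dusp1, 0.61 for Btg2, 0.67 for Junb and 0.42 for Egr1. With all 24 libraries r was 0.64 for Nr4a1, 0.76 for Dusp1, 0.20 for Btg2 and 0.66 for Junb. Saline replicate 6, kept among the 21, had their highest cortex and hippocampus sum (387 CPM, next 255 CPM in PICK1i replicate 1). It lay above its group's mean in Fos (0.438), Nr4a1 (0.397), Dusp1 (0.502), Btg2 (0.466) and Junb (0.455). The part of mixed tissue in these correlations was not tested. Arc (r = 0.41) and Plk3 (r = -0.26) ranked far lower, and Fosl2 (r = -0.44) and Nr4a3 (r = -0.39) had a negative r.

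**Figure D5:**
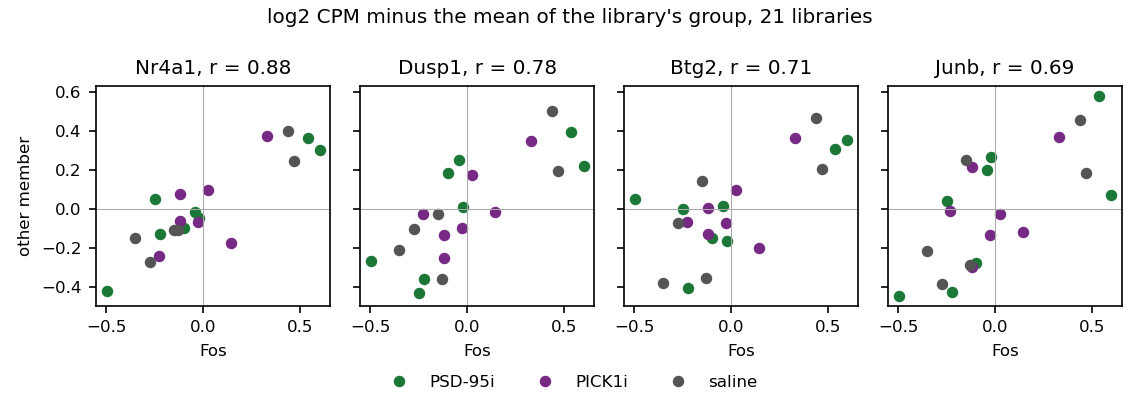
Fos (horizontal) against Nr4a1, Dusp1, Btg2 and Junb (vertical) in 21 libraries, as log2 CPM minus the mean of the library's group, coloured by group. The points rise together in each panel, with r of 0.88, 0.78, 0.71 and 0.69.

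Of 40 other activity-induced genes 38 were tested, and with PICK1i 3 were higher than in saline and 1 lower, near the 9.15% of all genes called, with a median log2 fold change of -0.03. The higher ones were Ier5l at 0.49 ± 0.14 (edgeR adjusted p = 0.0312), Nrn1, which encodes neuritin, at 0.65 ± 0.19 (0.0372) and the cell cycle inhibitor Cdkn1a at 0.40 ± 0.12 (0.0377). The lower one was Pcsk1, a prohormone convertase also made in the pituitary, at -0.77 ± 0.23 (0.036), and at -0.14 ± 0.09 without the 3 libraries (0.369). Of 36 genes that carry the signal from receptor to promoter, Hras was higher at 0.31 ± 0.08 (0.0234), and 3 were lower, again near that share, with a median of -0.01. These were Rps6ka5, a kinase that phosphorylates CREB and histone H3, at -0.62 ± 0.15 (0.0197), the kinase Braf at -0.23 ± 0.07 (0.0399) and the transcription factor Mef2d at -0.17 ± 0.05 (0.0399). Without the 3 libraries no gene of either list passed, with log2 fold changes of 0.38 for Ier5l, 0.28 for Nrn1, 0.37 for Cdkn1a, 0.17 for Hras, -0.45 for Rps6ka5, -0.23 for Braf and -0.19 for Mef2d (edgeR adjusted p of 0.113 to 0.248). None passed in PSD-95i against saline or against PICK1i.

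The transcript table gave the same genes at finer grain. Of the members' transcripts 54 were tested, and with PICK1i 2 were higher than in saline (2.0% of all 37955 transcripts were called). Plk3-201 had 2.64 ± 0.652 CPM in PICK1i and 1.48 ± 0.39 CPM in saline (SD, n = 8 each), a log2 fold change of 0.82 ± 0.21 (edgeR adjusted p = 0.0419). Vgf-201 had 60.8 ± 9.26 CPM in PICK1i and 43.8 ± 8.45 CPM in saline (SD, n = 8 each), a log2 fold change of 0.47 ± 0.11 (edgeR adjusted p = 0.0373). The more abundant Arc transcript, Arc-202, gave 0.71 ± 0.20 (0.0522). Without the 3 libraries 0 of the members' transcripts were called by edgeR, with 0.78 ± 0.23 for Plk3-201 and 0.37 ± 0.11 for Vgf-201 (adjusted p = 0.17 for both). None was called in PSD-95i against saline or against PICK1i.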

How the data were processed

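Libraries were made from hypothalamic mRNA with a stranded kit, per the labels' protocols. Per the submitters' processing notes, bcl2fastq 2.20.0, STAR and Salmon were used with build GRCm38, with no version of STAR or Salmon given in the sources used here. The authors deposited estimated counts per gene and per transcript. These were rounded to whole numbers, filtered with filterByExpr (minimum count 10), which left 15667 genes with 99.31% of counts, scaled by TMM and tested with the quasi-likelihood test of edgeR 4.0.16 (R 4.3.3) in 1 fit of 24 libraries with 21 residual degrees of freedom. P-values are two-sided and Benjamini-Hochberg adjusted over all genes or transcripts tested, at a threshold of 0.05, and the scripts were tested on simulated data. Of 84 replicate pairs 0 were identical. Gene positions and lengths come from GENCODE for GRCm38. Alternatives used DESeq2 1.42.0, limma 3.58.1 and sva 3.50.0, other filters and other sets of libraries.

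The members and lists were chosen with earlier results of these data known. The text names members called with or without the 3 libraries, Fos, Fosb, Egr1, Npas4, Nr4a1 and Arc, the 4 members of smallest p in each comparison, and up to 4 genes of each other list; other genes were named after their values were seen.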

Additional observations from a re-analysis of the deposited data

Results flagged for a closer look

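Within each group of 8 libraries, the highest or lowest library was set against the rest by Dixon's criterion for 8 values. Of 114 groups of values examined 21 held a library far from the others, where chance gives about 1 in 20, and 17 of the 21 were in the 3 libraries that stood apart by their markers. In PICK1i, replicate 6 was far above the next library in Arc (66.5 CPM, next 25.0 CPM), Egr1 (76.0 CPM, next 40.6 CPM), Egr3 (7.76 CPM, next 3.75 CPM) and Nr4a1 (44.3 CPM, next 29.8 CPM). The same library was highest in Ier5 at 43.0 CPM, Dusp6 at 33.0 CPM, Maff at 6.43 CPM and Dusp5 at 3.55 CPM. In saline, replicate 2 was far above the next in Nr4a1 (97.5 CPM, next 25.5 CPM), Fosl2 (55.6 CPM, next 22.5 CPM), Junb (57.4 CPM, next 33.5 CPM) and Ier2 (17.3 CPM, next 7.7 CPM). It was also highest in Sik1 at 55.7 CPM, Nr4a2 at 28.5 CPM, Csrnp1 at 15.2 CPM, Gadd45b at 11.6 CPM and Egr2 at 4.05 CPM. Saline replicate 3, which carried pituitary mRNA as well, was flagged in no member. The criterion tests only the highest or lowest library, so it can miss a library that lies beside another far one. Saline replicate 3 had 43.0 CPM in Btg2 and 11.5 CPM in Pim1, beside 77.8 and 11.8 CPM in replicate 2. The 6 saline libraries without pituitary mRNA reached at most 17.2 and 6.38 CPM. Outside the 3 libraries, PSD-95i replicate 3 was highest in Fosb at 9.07 CPM and Nr4a3 at 13.4 CPM, PSD-95i replicate 7 in Trib1 at 22.5 CPM, and saline replicate 6 in Egr3 at 8.51 CPM (next 2.42 CPM). The part of the foreign tissue in these levels was not tested.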

How the results depend on the processing

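For PICK1i against saline, the 5 members called (beside 9.15% of all genes) became 0 without the 3 libraries, without saline replicates 2 and 3, without PICK1i replicates 1, 2, 5 and 6, without all of these, with only the groups compared, with voom sample weights, with consecutive libraries as a random block and with length tilt as a covariate. In these fits 0.0% to 2.02% of all genes were called. There were 2 with no filter (Arc and Plk3, 3.74% of genes called) and 6 with DESeq2 (Jund added, 12.5% of genes). There were 5 with RLE size factors (9.17%) and with the stricter filter (minimum count 30, 11.2%), and 4 with limma-voom (7.11%). With 1 library left out there were 0 to 8 (1.9% to 17.5% of genes). With 2 surrogate variables none of the 5 passed and 1 other member, Egr2, did (0.823% of genes called). The 2 transcripts called (2.0% of all transcripts) became 0 without the 3 libraries (0.0%). For PSD-95i against PICK1i, the 0 called (0.0% of genes) became 5 without saline replicates 2 and 3 (7.64%), 3 with the stricter filter (3.96%) and 4 with DESeq2 (8.04%). There were 2 with limma-voom (2.74%), 2 with sample weights (2.78%) and 7 with surrogate variables (9.82%). With 1 library left out there were 0 to 6 (0.0% to 14.7% of genes), and the median was -0.1 with length tilt. For PSD-95i against saline 0 members and 0.0% of genes were called under all of these. The cause was not tested. With 1 library left out the medians were -0.1 to -0.0 (PSD-95i against saline), 0.15 to 0.24 (PICK1i against saline) and -0.28 to -0.2 (PSD-95i against PICK1i). The median in PICK1i against saline, 0.17, was 0.10 without PICK1i replicates 1, 2, 5 and 6 and 0.11 with length tilt. Between libraries of the same replicate number in different groups, deviations from the group mean had correlations of -0.194 to 0.15. These values are low and cannot settle whether replicate numbers pair libraries. For the consecutive libraries of the random block, all within a group, the consensus correlation was 0.1408. With the replicate block 4 members were called in PICK1i against saline (7.19% of genes) and 0 in the other comparisons (0.0% of genes). Signs turned, with no call, as follows. In PSD-95i against saline, Fos was -0.01 with the stricter filter and with sample weights; Fosb was -0.05 in the 3 fits without saline replicates 2 and 3, -0.06 with sample weights and -0.04 with surrogate variables; Npas4 was 0.01 in those 3 fits, 0.02 with sample weights, 0.11 with surrogate variables and 0.04 with length tilt; Nr4a1 was 0.03 in those fits, 0.01 with DESeq2 and 0.02 with surrogate variables; Arc was 0.02 in those fits and 0.03 with length tilt. In PICK1i against saline, Npas4 was -0.20 without PICK1i replicates 1, 2, 5 and 6, -0.16 without saline replicates 2 and 3 as well and -0.18 with length tilt. Nr4a1 was 0.24 without the 3 libraries, 0.38 without saline replicates 2 and 3, 0.17 without PICK1i replicates 1, 2, 5 and 6 as well, 0.00 with the replicate block, 0.36 with DESeq2, 0.02 with limma-voom, 0.21 with sample weights, 0.01 with the random block and 0.23 with surrogate variables. In PSD-95i against PICK1i, Npas4 was 0.17 in both fits without PICK1i replicates 1, 2, 5 and 6 and 0.22 with length tilt, where Nr4a1 was 0.03. With 1 library left out, PSD-95i against saline gave -0.1 to 0.09 for Fos, -0.07 to 0.06 for Fosb, -0.08 to 0.01 for Npas4, -0.66 to 0.02 for Nr4a1 and -0.11 to 0.05 for Arc, and PICK1i against saline gave -0.36 to 0.37 for Nr4a1. Counts as low as 1 limit Egr2, and Ptgs2 and Inhba were at most 18 counts.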
